A study of Mus musculus with 12 samples.

Results

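The annexin genes Anxa1, Anxa2, Anxa3, Anxa4, Anxa5, Anxa6, Anxa7, Anxa11 and Anxa13 were followed through RNA-seq of whole mouse kidney in 12 libraries, 4 in each of 3 groups. These 9 genes were taken from the 33188 genes of the deposited table by an exact match of the gene name. The list names no threshold, but it was drawn up with the levels and changes of these same 12 libraries known, so the members were chosen on the measured values of all 3 comparisons. Their levels and changes are therefore given below as a description, without p-values, and support nothing. The table holds 11 numbered annexin genes. Anxa8 and Anxa9 are the others and are described near the end. Anxa10 was looked up but had no row under that name, and so was not tested.

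The CTL group was the control. HUA stands for the hyperuricemia model, in which urate was raised with potassium oxonate, a blocker of the enzyme uricase, and with hypoxanthine, a purine that is turned into urate. The XZSW group was the same model treated with the herbal Xin-Zi-Sheng-Wan Decoction. All 12 samples were kidney of wild-type (WT) genotype, and so share the WT genotype and tissue. The labels name no strain, sex, age, dose or duration. They do not say whether a group's 4 samples were 4 animals, and every p-value therefore measures only the spread between these samples. The table marks its columns C, N or M, and the sample descriptions tie those letters to CTL, HUA and XZSW. If N and M were exchanged there, HUA and XZSW would be exchanged below.

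The libraries held 51643999 to 74288100 counts assigned to genes. Levels are given as CPM, the counts scaled to a common library total, with edgeR's TMM scaling factors, which ran from 0.856 in CTL2 to 1.15 in HUA3 and were lowest in CTL. Levels of different genes are compared only as the authors' FPKM, which is per length of transcript. Kidney identity was plain in every library: the 8 proximal tubule markers (Slc34a1, Lrp2, Slc5a2 and others) summed to between 1615 and 11757 CPM, and none was at 0 in any library. In bulk tissue, fewer cells of a type and less RNA per cell cannot be told apart.

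Annexins are proteins that bind acidic membrane phospholipids, above all phosphatidylserine, when calcium rises in the cell. They share a folded core of repeats that carries the calcium sites, while the N-terminal tail differs between members and sets their partners, many of them S100 proteins. By this switch they take part in vesicle traffic, membrane repair, the link between membrane and actin, and the masking of exposed phosphatidylserine outside the cell. In kidney, Anxa13 is known from polarised tubular epithelium, whereas Anxa1 and Anxa2 are known to be induced in injured or inflamed tissue.

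The promoters of 4 members are shown because Anxa2, Anxa4 and Anxa5 belonged to the annexins that were higher in HUA, whereas Anxa11 hardly moved. They come from RefSeq on GRCm38.p6, which had windows of 250 bases before the start for 6 of the 9 members (8 windows). Anxa3, Anxa6 and Anxa13 had no such window and were not searched. Each run is a stretch of up to 120 bases outside annotated exons, 5′ to 3′ on the gene's own strand, and capitals mark motif matches. The Anxa2 stretch is chr9:69453500-69453619 on the plus strand, that of Anxa4 chr6:86793585-86793704 and that of Anxa5 chr3:36475895-36476014, both on the minus strand, and that of Anxa11 chr14:25842035-25842154 on the plus strand.
Anxa2: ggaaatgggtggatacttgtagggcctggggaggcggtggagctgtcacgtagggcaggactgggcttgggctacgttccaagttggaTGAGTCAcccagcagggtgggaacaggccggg
Anxa4: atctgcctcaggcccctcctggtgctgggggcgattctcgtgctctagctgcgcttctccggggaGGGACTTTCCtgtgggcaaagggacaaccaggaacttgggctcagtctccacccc
Anxa5: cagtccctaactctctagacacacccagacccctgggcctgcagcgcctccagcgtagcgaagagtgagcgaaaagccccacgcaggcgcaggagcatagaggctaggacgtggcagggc
Anxa11: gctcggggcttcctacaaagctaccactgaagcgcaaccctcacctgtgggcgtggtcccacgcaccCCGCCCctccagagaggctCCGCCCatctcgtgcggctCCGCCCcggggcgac

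The capitals in Anxa2 are a match to the AP-1 motif TGANTCA, 95 to 89 bases before the start. On both strands of 32851 RefSeq promoter windows of the same length, 6.75% held that motif, and no other member's window did. The capitals in Anxa4 are a match to the NF-kB motif, 55 to 46 bases before the start, which 7.25% of all windows held. The other Anxa4 window, whose 120 bases nearest its start are chr6:86775115-86775234, held no match to any motif searched. The capitals in Anxa11 are 3 copies of the SP1 box GGGCGG on the opposite strand. That box was held by 32.7% of all windows and also by those of Anxa2 and Anxa7. The TEAD motif GGAATG (12.6% of windows) was found for Anxa1 alone among the 6 members with a window. TATAAA, a motif added after the sequences were seen (12.4% of windows), was found for Anxa1, 32 to 27 bases before its start, and for Anxa2, 17 to 12 bases before its start. These starts are those of RefSeq. All 250 bases of the Anxa1 window, the last 63 of the Anxa2 window and the last 192 of 1 Anxa7 window lie in annotated exons of the same gene. Both Anxa1 matches and the TATAAA of Anxa2 are therefore exon sequence in that annotation. So are the SP1 boxes of Anxa2 at 48 to 43 and 24 to 19 bases before the start. Those of that Anxa7 window at 71 to 66, 57 to 52 and 28 to 23 bases are exon sequence too. Each of these windows also held an SP1 box outside the exons, at 190 to 185 bases for Anxa2 and 200 to 195 for Anxa7. TGACGTCA (1.55% of windows), the HNF4A element CAAAGTCCA (0.384%) and the HNF1 half-site GTTAAT (6.43%) were found in none of the members' windows. A match is a run of letters and was not tested for binding.

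In control kidney the annexins differed widely in level. By deposited FPKM, Anxa5 was highest at 32.6 ± 2.97 (SD, n = 4) and Anxa7 followed at 22.6 ± 0.519, with no overlap between their libraries. Anxa4 (11.97 ± 0.862), Anxa6 (11.7 ± 1.23), Anxa11 (10.5 ± 1.05) and Anxa2 (8.61 ± 2.18) came next, and each of these overlapped its neighbour in the order. Anxa13 stood apart at 3.78 ± 1.09, and Anxa3 (1.83 ± 0.502) and Anxa1 (1.68 ± 0.401) were lowest and overlapped.

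In HUA kidneys 6 of the 9 annexins were called higher and 1 lower than in CTL, at an edgeR adjusted p under 0.05 over all 19772 genes tested, where 14.9% of tested genes were called higher and 12.8% lower. All 9 members passed the low-count filter. Against HUA, the XZSW kidneys had the opposite pattern, with 6 annexins called lower and 1 higher, where 8.34% of tested genes were called lower and 7.09% higher. Both comparisons use the same HUA libraries, and the members were chosen with both in view, so nothing is read from these counts. The members' median log2 change was 2.22 in HUA against CTL and -1.45 in XZSW against HUA, and over all tested genes it was 0.06 and 0.01.

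**Figure D1:**
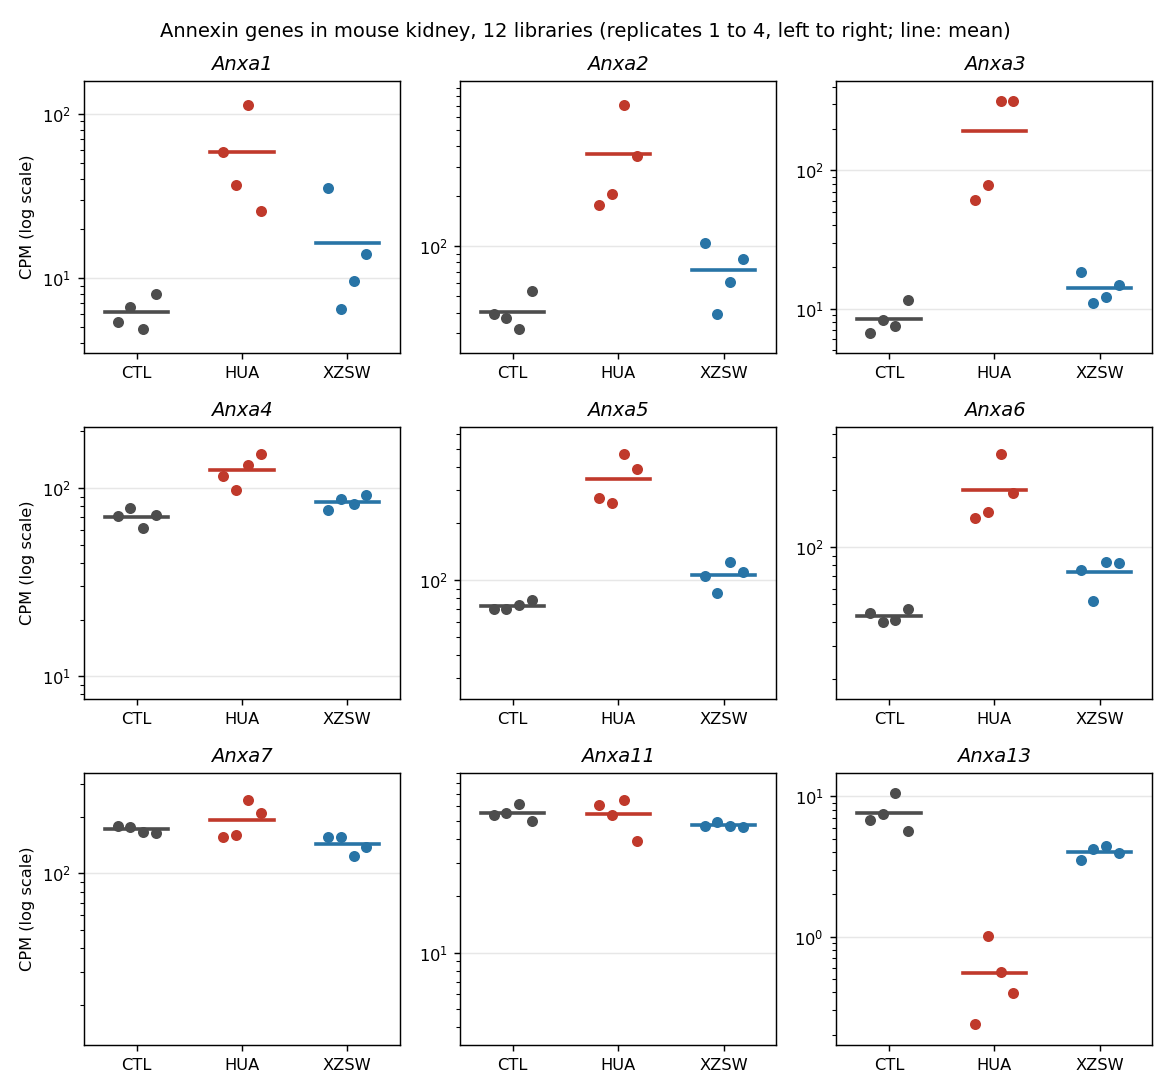
Level of each annexin gene in every library, in CPM with TMM scaling, on a log axis; points are libraries 1 to 4 from left to right in each group and lines are group means. In HUA, Anxa1 to Anxa6 lie above every CTL library and Anxa13 lies below, while Anxa7 and Anxa11 overlap between HUA and CTL.

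Anxa1, Anxa2 and Anxa3 had the largest increases. Anxa1 encodes a protein induced by glucocorticoids whose N-terminal peptide acts on formyl peptide receptors of leukocytes. Its level was 5.40, 6.68, 4.87 and 7.99 CPM in CTL1 to CTL4, 58.9, 37.0, 113 and 25.7 CPM in HUA1 to HUA4, and 35.3, 6.48, 9.54 and 14.0 CPM in XZSW1 to XZSW4. Every HUA library lay above every CTL library, but XZSW1 lay above HUA4, so HUA and XZSW overlapped. The fitted log2 change was 3.23 ± 0.55 (SE) in HUA against CTL and -1.85 ± 0.52 in XZSW against HUA. The second call rested on single libraries. It was lost without HUA3 (-1.32), XZSW2 (-1.58), XZSW3 (-1.66) or XZSW4 (-1.78). With the 8 compared libraries alone it was lost at -1.85, and the change was -2.55 without XZSW1.

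Anxa2 encodes the annexin that pairs with S100a10 at the cell surface and there binds plasminogen and its tissue activator. It measured 39.3, 37.3, 31.8 and 53.7 CPM in CTL, 176, 207, 704 and 348 CPM in HUA, and 105, 39.3, 60.9 and 83.5 CPM in XZSW. HUA lay above both other groups without overlap, and XZSW overlapped CTL because XZSW2 was as low as the controls. The log2 change was 3.15 ± 0.43 in HUA against CTL and -2.32 ± 0.42 in XZSW against HUA.

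Anxa3, known from neutrophil granules and from several epithelia, had the largest increase of the 9. Its level was 6.64, 8.27, 7.43 and 11.5 CPM in CTL, 61.1, 78.4, 316 and 315 CPM in HUA, and 18.2, 10.97, 12.2 and 14.8 CPM in XZSW. The HUA libraries fell into a lower pair, HUA1 and HUA2, and a higher pair, HUA3 and HUA4, and both pairs were clear of the other groups. The log2 change was 4.51 ± 0.52 in HUA against CTL and -3.78 ± 0.50 in XZSW against HUA.

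Anxa5 and Anxa6 moved by similar factors. Anxa5, whose protein coats exposed phosphatidylserine and is used to stain dying cells, measured 70.2, 70.5, 73.4 and 78.7 CPM in CTL, 272, 255, 466 and 390 CPM in HUA, and 106, 85.4, 125 and 111 CPM in XZSW. The 3 groups did not overlap at all, with XZSW between the others. Its log2 change was 2.24 ± 0.20 in HUA against CTL and -1.70 ± 0.19 in XZSW against HUA. Anxa6, which carries a duplicated core and links membranes to the cytoskeleton and to endosomes, measured 44.9, 40.1, 41.0 and 47.1 CPM in CTL, 143, 155, 311 and 195 CPM in HUA, and 75.7, 51.9, 83.2 and 82.8 CPM in XZSW. Here too the groups were separate and XZSW lay between. The log2 change was 2.22 ± 0.24 in HUA against CTL and -1.45 ± 0.23 in XZSW against HUA.

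Anxa4, an annexin of secretory and other epithelia, changed least among those called. It measured 71.4, 78.1, 61.3 and 71.5 CPM in CTL, 115, 98.2, 133 and 151 CPM in HUA, and 76.7, 87.3, 81.8 and 92.3 CPM in XZSW. HUA lay above both other groups, by a narrow margin over XZSW, where HUA2 was close to XZSW4. The log2 change was 0.82 ± 0.14 in HUA against CTL and -0.56 ± 0.14 in XZSW against HUA. The latter was not called without HUA3 (-0.54) or XZSW1 (-0.51), with the 8 compared libraries alone (-0.56), or with CTL and the 5 libraries of high GC slope named below (-0.55).

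Anxa7 and Anxa11, the members with long N-terminal tails, were called by edgeR in neither comparison, although for Anxa7 this depended on the test. Anxa7, first described for its effect on the fusion of secretory granules, measured 178, 177, 166 and 164 CPM in CTL, 156, 161, 245 and 209 CPM in HUA, and 156, 157, 124 and 139 CPM in XZSW. HUA1 and HUA2 lay below every control and HUA3 and HUA4 lay above, so the fitted change was small, 0.17 ± 0.15 in HUA against CTL and -0.42 ± 0.15 in XZSW against HUA. Leaving out HUA1 or HUA2 brought the change of XZSW against HUA under the threshold, at -0.53 and -0.51. With library totals as the scaling, which moved the median of all genes in HUA against CTL by 0.33, Anxa7 was called higher in HUA, at 0.50, and lower in XZSW than in HUA, at -0.60. Both limma fits made the same calls, at 0.48 and 0.49 and at -0.50 and -0.52, and DESeq2 called the second, at -0.42, as did the fit with CTL and the 5 libraries of high GC slope named below, at -0.64. Anxa11, whose protein binds S100a6 and the calcium sensor Pdcd6 and sits on RNA granules, measured 53.7, 55.4, 61.5 and 50.1 CPM in CTL, 60.5, 54.0, 64.6 and 39.2 CPM in HUA, and 47.1, 49.3, 46.9 and 46.3 CPM in XZSW. HUA4 was the lowest of all libraries and HUA3 the highest, and the change in HUA against CTL was -0.02 ± 0.14, with a sign that depended on the scaling (0.31 with library totals). In XZSW against HUA it was -0.20 ± 0.15.

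Anxa13 was the one member that was lower in the model. Its product is an annexin of intestinal and tubular epithelium that is anchored to membranes by a myristoyl group. It measured 6.83, 7.52, 10.6 and 5.65 CPM in CTL, 0.237, 1.00, 0.563 and 0.399 CPM in HUA, and 3.55, 4.23, 4.44 and 3.95 CPM in XZSW. The groups were fully separate, with XZSW between CTL and HUA. The counts behind these levels were 337 to 490 in CTL, 19 to 69 in HUA and 233 to 305 in XZSW. The log2 change was -3.79 ± 0.39 in HUA against CTL and 2.88 ± 0.38 in XZSW against HUA. The gene lies at chr15:58341363-58389383 on the minus strand of GRCm38. The table gives it the biotype processed transcript, and the GENCODE M21 annotation tags it as an error of the reference genome, so its reads were counted over a model without a coding frame.

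**Figure D2:**
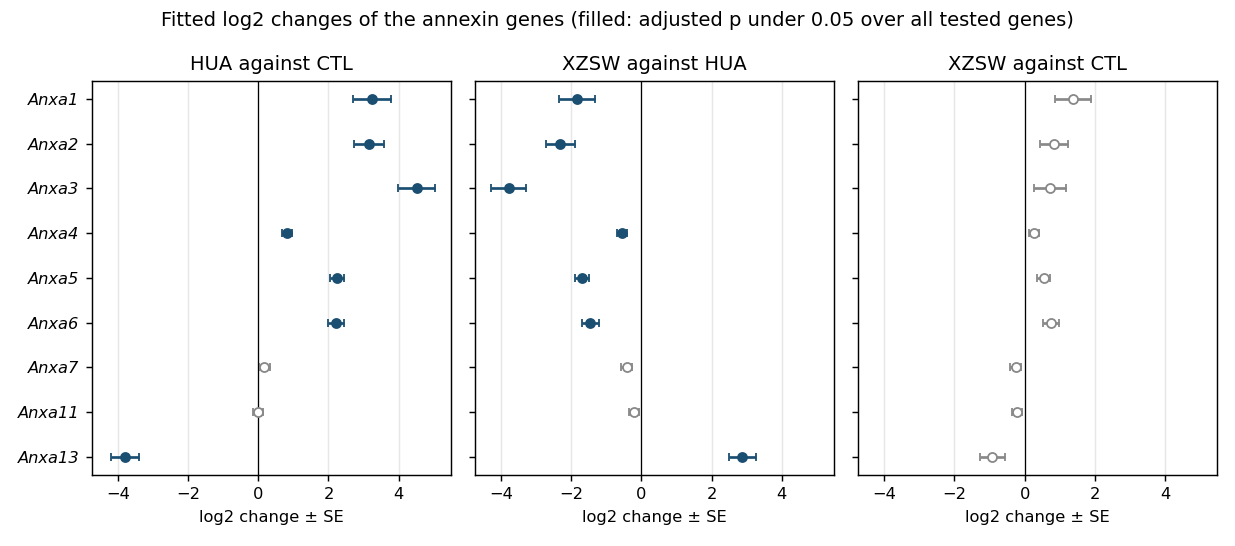
Fitted log2 change of each annexin gene in the 3 comparisons, with the standard error as bars; filled points passed an edgeR adjusted p under 0.05 over all tested genes. Anxa13 stands opposite to Anxa1 to Anxa6 in the first and second comparison, and no point is filled in XZSW against CTL.

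Between XZSW and CTL, edgeR called 0 of the 9 annexins, where it called 2.72% of tested genes higher and 2.27% lower. At an unadjusted p under 0.05, 4 of the 9 passed, beside 23.0% of all tested genes. DESeq2 called 3 (Anxa1, Anxa5 and Anxa6), and limma on log2(FPKM + 1) and log2(FPKM + 0.1) called 2 and 3. With the 8 compared libraries alone, edgeR called 4: Anxa3 (0.74), Anxa5 (0.55) and Anxa6 (0.77) higher and Anxa13 (-0.90) lower. The log2 changes were 1.39 for Anxa1, 0.83 for Anxa2, 0.73 for Anxa3, 0.26 for Anxa4, 0.54 for Anxa5, 0.76 for Anxa6, -0.25 for Anxa7, -0.22 for Anxa11 and -0.92 for Anxa13, with a median of 0.54 beside 0.04 over all tested genes. The value of Anxa1 was 0.68 without XZSW1. In CPM, XZSW libraries lay wholly above CTL for Anxa5 and Anxa6 and wholly below for Anxa7, Anxa11 and Anxa13. In the deposited FPKM, which carry no TMM factor, Anxa4 also lay wholly above, and Anxa7 and Anxa11 overlapped CTL. Over all tested genes, 10.3% had XZSW wholly above CTL and 11.3% wholly below. In HUA against CTL, 6 members lay wholly above and 1 wholly below in CPM, beside 15.1% and 15.2% of tested genes. In XZSW against HUA, 1 lay wholly above and 5 wholly below in CPM, beside 8.98% and 9.08%. By deposited FPKM, Anxa7 in HUA also lay wholly above both CTL and XZSW.

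The sum of the 9 genes' FPKM was 105 ± 6.40 in CTL, 511 ± 210 in HUA and 158 ± 25.6 in XZSW (SD, n = 4 each). These FPKM carry no TMM factor. Limma on log2(FPKM + 0.1) moved the median log2 change of all genes by 0.31 in HUA against CTL and by -0.11 in XZSW against HUA. Part of the difference between the sums therefore comes with the scaling. It was 351, 347, 791 and 556 in HUA1 to HUA4 and at most 176 in XZSW. The make-up of this sum changed as well. Anxa7 supplied 21.5% of it in CTL, 6.68% in HUA and 14.4% in XZSW. Anxa2 supplied 8.12%, 17.7% and 11.1%, and Anxa3 1.72%, 9.48% and 2.25%. Anxa5 was the largest contributor in each group, at 30.9%, 39.7% and 35.3%. In HUA the order by mean FPKM was Anxa5 (197), Anxa2 (97.7), Anxa6 (69.4), Anxa3 (53.7), Anxa7 (32.5), Anxa4 (27.0), Anxa1 (20.4), Anxa11 (13.3) and Anxa13 (0.343). Each overlapped the next in its libraries except Anxa11, which did not overlap Anxa13.

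**Figure D3:**
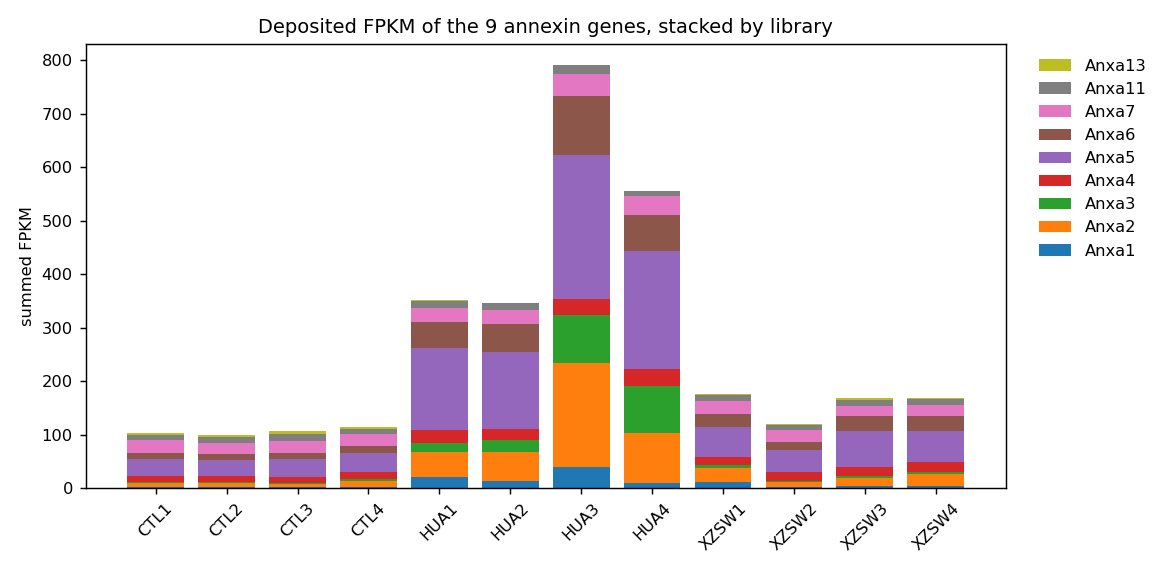
Deposited FPKM of the 9 annexin genes stacked for each library. The sum lies between 98.6 and 114 in CTL, between 347 and 791 in HUA and between 120 and 176 in XZSW, and the added height in HUA is mostly Anxa5, Anxa2, Anxa6 and Anxa3.

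The HUA libraries were not alike, and the annexins did not rank them in the same way. HUA3 was the highest of all 12 libraries for 7 of the 9 genes, HUA4 was the highest for Anxa4, and CTL3 for Anxa13. Anxa1 and Anxa3, which had similar FPKM in CTL, came apart among the other libraries. The ratio of Anxa1 to Anxa3 FPKM lay between 0.816 and 1.01 in CTL and was 1.21, 0.590, 0.448 and 0.102 in HUA1 to HUA4. In XZSW it was 2.42, 0.741, 0.981 and 1.19. HUA4 was thus high for Anxa3 and the lowest HUA library for Anxa1, and XZSW1, the highest XZSW library for both, was raised more for Anxa1 than for Anxa3. Over the 12 libraries, which share the groups and their scaling, Pearson's r of log2 levels was 0.985 for Anxa5 with Anxa6, 0.840 for Anxa1 with Anxa3 and -0.951 for Anxa5 with Anxa13. That of Anxa11 with Anxa2 was 0.03.

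Marker levels of other cells moved with some of these values, and their part in them was not tested. The 6 macrophage markers (Cd68, Adgre1, Csf1r and others) summed to 62.9 to 98.7 CPM in CTL, to 242, 219, 200 and 65.9 CPM in HUA1 to HUA4, and to 59.5 to 210 CPM in XZSW. Of the 6, 4 were called higher in HUA. The 6 markers of fibroblasts, pericytes and smooth muscle summed to 66.2 to 84.8 CPM in CTL, to 156 to 361 CPM in HUA, with HUA3 highest, and to 56.2 to 210 CPM in XZSW, and 3 of the 6 (Pdgfrb, Col1a1 and Acta2) were called higher in HUA. The 6 urothelial markers summed to 2.58 to 18.9 CPM in CTL, to 14.8, 16.7, 188 and 78.0 CPM in HUA, and to 2.57 to 13.0 CPM in XZSW, with HUA3 and HUA4 highest as for Anxa2 and Anxa3. Of these 6, only Krt20, a keratin, was called higher in HUA, at a log2 change of 5.49. The uroplakins Upk1a (-0.64), Upk1b (-0.58), Upk2 (-0.77) and Upk3a (0.07) and the keratin Krt5 (1.59) were not called, and the list's median was -0.25. The 5 adipocyte markers summed to 273 CPM in XZSW1 and to at most 32.7 CPM elsewhere, and XZSW1 was the highest XZSW library for Anxa1, Anxa2 and Anxa3. The 6 neutrophil markers summed to at most 12.5 CPM in any library, with 4 of the 6 at 0 in some library. The 8 tubular injury markers summed to 850 to 995 CPM in CTL, 9257 to 53178 CPM in HUA and 1601 to 2335 CPM in XZSW. The 8 proximal tubule markers went from 8738 to 11167 CPM in CTL to 1615 to 5574 CPM in HUA and 8983 to 11757 CPM in XZSW.

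The libraries HUA2, HUA3, HUA4, XZSW3 and XZSW4 had higher values for GC-rich transcripts than CTL (a slope of 0.244 to 0.381 log2 units per 10% GC, against -0.061 to 0.051 in the other 7). Transcript GC of the 9 annexins ranged from 43.3% for Anxa1 to 55.3% for Anxa11. Anxa1, Anxa2, Anxa3, Anxa4, Anxa5 and Anxa6 were lower, and Anxa13 higher, in XZSW than in HUA both among the 5 libraries and among HUA1, XZSW1 and XZSW2. For Anxa3 the ratio of HUA to XZSW was 17.6 in the former and 4.19 in the latter, and for Anxa5 it was 3.15 and 2.85. For Anxa7 the ratio was 1.56 and 0.994. Fitted with CTL, HUA1, XZSW1 and XZSW2 alone, where HUA is a single library, the changes in XZSW against HUA of Anxa1 (-1.47), Anxa2 (-1.27) and Anxa4 (-0.47) were not called.

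The genes that work with annexins were taken from 6 lists of 50 genes in all, of which 45 were tested. The lists were drawn up with earlier results of these data known. The counts and p-values of their genes are therefore a description and support nothing. In HUA against CTL 21 were called higher and 4 lower, where 14.9% of all tested genes were called higher and 12.8% lower. In XZSW against HUA 2 were called higher and 14 lower, beside 7.09% and 8.34% of all tested genes. In XZSW against CTL 6 were called higher and 2 lower, beside 2.72% and 2.27%. The counts of each list below stand beside the same shares. The partner genes' median log2 changes were 0.79, -0.48 and 0.22 in that order of comparisons. These comparisons share their HUA or CTL libraries.

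Among the 6 S100 genes, whose small proteins hold annexins in pairs, 4 were higher in HUA than in CTL and 3 were lower in XZSW than in HUA. S100a10, the partner of Anxa2, measured 75.4, 74.4, 74.5 and 126 CPM in CTL, 178, 215, 550 and 327 CPM in HUA, and 74.5, 67.6, 71.0 and 76.7 CPM in XZSW. It rose by a log2 change of 1.86 ± 0.31 in HUA (edgeR adjusted p = 0.000935) and fell in XZSW against HUA, with a log2 change of -2.13 ± 0.31 (edgeR adjusted p = 0.00127). S100a11, the partner of Anxa1, was 2.27 ± 0.29 higher on the log2 scale in HUA than in CTL (edgeR adjusted p = 0.000196). S100a6, which binds Anxa2 and Anxa11, went from 4.71 ± 1.16 CPM in CTL to 144 ± 102 CPM in HUA and 9.31 ± 5.64 CPM in XZSW (SD, n = 4). Its log2 change in HUA was 4.94 ± 0.59 (edgeR adjusted p = 0.000124). S100a1 was also called higher in HUA, at 0.75, a call lost without any 1 CTL library, HUA3 or HUA4, and S100a4 and S100b were not called.

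The ratio of Anxa2 to S100a10 FPKM was lowest in CTL, and HUA and XZSW overlapped. It was 0.152 ± 0.016 in CTL, 0.349 ± 0.047 in HUA and 0.319 ± 0.114 in XZSW (SD, n = 4). All HUA and XZSW libraries were above all CTL libraries, with XZSW2 nearest to CTL at 0.188 and XZSW1 highest at 0.457. In XZSW the FPKM of S100a10 lay within the range of CTL in every library, whereas that of Anxa2 lay above every CTL library in 3 of 4.

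**Figure D4:**
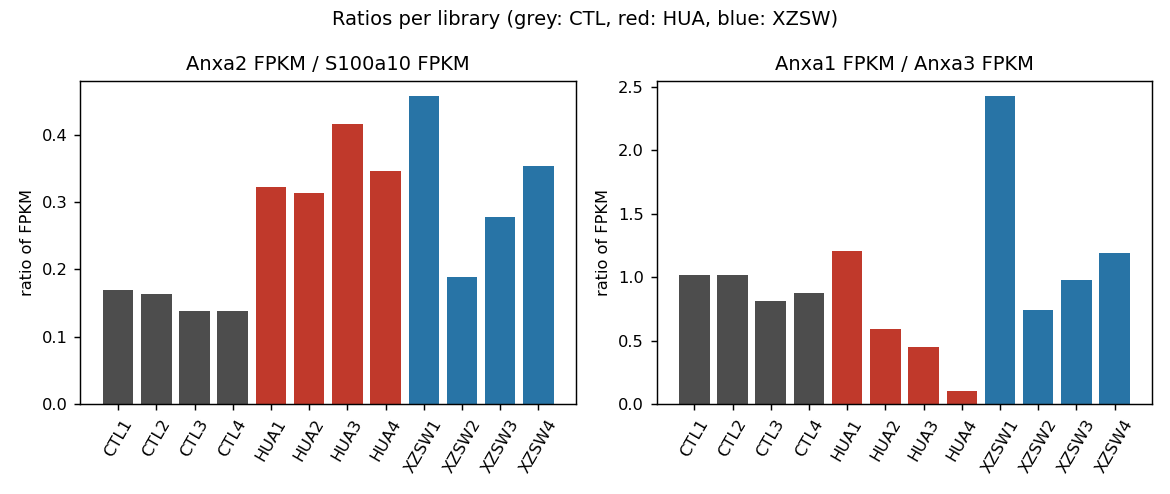
Ratio of Anxa2 to S100a10 FPKM (left) and of Anxa1 to Anxa3 FPKM (right) in each library, with bars from 0 coloured by group. The left ratio is 0.138 to 0.169 in CTL and 0.188 or more elsewhere, and the right ratio runs from 0.102 in HUA4 to 2.42 in XZSW1.

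In the list on plasminogen activation, 7 of 8 genes were tested, 5 were higher in HUA than in CTL, and 4 were lower in XZSW than in HUA. Plaur, the urokinase receptor, went from 3.61 ± 0.819 CPM in CTL to 68.8 ± 30.3 CPM in HUA and 5.14 ± 2.46 CPM in XZSW, with a log2 change of 4.25 ± 0.42 in HUA (edgeR adjusted p = 3.81e-05). Plau, urokinase itself, was abundant in every group and rose from 222 ± 36.2 to 1070 ± 485 CPM (edgeR adjusted p = 0.00176). Plat, the tissue activator bound by Anxa2 and S100a10, differed from these: it was called higher than CTL in both HUA and XZSW, at log2 changes of 1.12 and 1.48 (edgeR adjusted p = 0.0437 and 0.0458). Its highest library was XZSW1 at 162 CPM, and the changes were 0.83 without HUA3 and 0.93 without XZSW1. The call in HUA was also lost without any 1 CTL library, HUA1 or XZSW2, and that in XZSW without any 1 CTL library, HUA2, XZSW2 or XZSW3. Both calls were lost without the low-count filter, at 1.18 and 1.52. Serpine2 was higher in HUA, at 2.62 ± 0.42, and lower in XZSW than in HUA, at -1.42 ± 0.40 (edgeR adjusted p = 0.0008 and 0.031), the latter lost without HUA3 (-0.87), XZSW2 (-1.25), XZSW3 (-1.47) or XZSW4 (-1.34), with a GC term (-1.36), and with the 8 compared libraries alone (-1.42).

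The list of formyl peptide receptors and phospholipase A2 enzymes also held Alox5 and Alox5ap. Of its 6 tested genes, 1 was called higher and 1 lower in HUA than in CTL, shares close to those of all tested genes. The list's median log2 change there was 1.56, with Fpr1 (1.95 ± 1.31), Alox5 (1.80 ± 1.07) and the phospholipase gene Pla2g4a (0.32 ± 0.32) not called. Fpr2, a receptor for Anxa1, had 0, 0, 4 and 0 counts in CTL, 84, 27, 105 and 36 counts in HUA and 147, 117, 32 and 0 counts in XZSW. It was called higher in HUA (edgeR adjusted p = 0.0155) and in XZSW (edgeR adjusted p = 0.0418) than in CTL, although XZSW4 had none. The call in XZSW was lost without any 1 CTL library, XZSW1, XZSW2 or XZSW3, without the low-count filter, and with both limma fits. The call in HUA was lost with limma on log2(FPKM + 1). Pla2g6, a calcium-independent phospholipase, was lower in HUA by a log2 change of -0.62 ± 0.14 (edgeR adjusted p = 0.00543) and 0.45 ± 0.14 higher in XZSW than in HUA (edgeR adjusted p = 0.0436). The latter call was lost in 10 of the 12 fits that each left out 1 library, and held without HUA2 or XZSW1, and both were lost with library totals as the scaling, at -0.29 and 0.28. Alox5ap, which serves leukotriene synthesis, had a log2 change of 1.33 ± 0.50 in HUA (edgeR adjusted p = 0.0638).

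Of 12 membrane repair genes, 6 were higher in HUA than in CTL and 5 were lower in XZSW than in HUA, with none called in the other direction. Myof (myoferlin) measured 14.4 ± 2.12 CPM in CTL, 189 ± 102 CPM in HUA and 44.3 ± 12.2 CPM in XZSW. Its log2 change was 3.71 ± 0.35 in HUA against CTL (edgeR adjusted p = 2.88e-05), and it was still 1.62 ± 0.32 higher in XZSW than in CTL (edgeR adjusted p = 0.0181). That last call was lost without CTL2, CTL3 or XZSW1. Its relative Dysf (dysferlin), which patches torn membrane with annexins, rose by 2.33 ± 0.30 in HUA (edgeR adjusted p = 0.000184). Ahnak, a large scaffold bound by the pair of Anxa2 and S100a10, also had a log2 change of 2.33 in HUA (edgeR adjusted p = 0.00261), and in XZSW against HUA it was -0.86 ± 0.44 (edgeR adjusted p = 0.213). The protease gene Capn2 and the ESCRT genes Pdcd6ip and Chmp4b rose by less, at 0.96, 0.64 and 0.79 in HUA, and were lower in XZSW at -1.02, -0.65 and -1.09. Pdcd6, the calcium sensor that binds Anxa11 and Anxa7, was not called, with log2 changes of -0.05 and -0.41. The ratio of Anxa11 to Pdcd6 FPKM overlapped between the groups, at 0.442 ± 0.058 in CTL, 0.462 ± 0.132 in HUA and 0.519 ± 0.025 in XZSW.

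Genes that expose phosphatidylserine or take up cells that show it moved in both directions: of 12 tested, 4 were higher and 3 lower in HUA than in CTL. Mfge8, a secreted bridge between phosphatidylserine and integrins, rose from 39.9 ± 4.24 to 117 ± 32.9 CPM (log2 change 1.55 ± 0.22, edgeR adjusted p = 0.000329) and was 46.0 ± 10.7 CPM in XZSW. The uptake receptors Axl and Mertk went opposite ways, with Axl at 1.13 ± 0.30 (edgeR adjusted p = 0.0123) and Mertk at -0.99 ± 0.26 (edgeR adjusted p = 0.0116). Tmem30a, the subunit that the phosphatidylserine flippases need, was lower than in CTL in both HUA and XZSW, at -0.96 ± 0.17 and -0.81 ± 0.17 (edgeR adjusted p = 0.00139 and 0.0226). The call in XZSW was lost without CTL2, CTL3, XZSW1 or XZSW3. The scramblase gene Ano6 was 0.71 ± 0.21 higher in HUA (edgeR adjusted p = 0.0224) and lower again in XZSW, at -0.81 (edgeR adjusted p = 0.0212), but the first call was lost without HUA3 (0.61), CTL2, CTL3 or CTL4 and the second without HUA3 (-0.69) or XZSW2 (-0.66). Stab2, a scavenger receptor of sinusoidal endothelium, was not called in HUA against CTL and was 1.55 ± 0.38 higher in XZSW than in HUA (edgeR adjusted p = 0.0172), a call lost without HUA3 (1.42) or XZSW3 (1.38). The sum of the 6 endothelial markers was 137 to 222 CPM in XZSW and 66.4 to 192 CPM in HUA, and its part in the change of Stab2 was not tested.

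**Figure D5:**
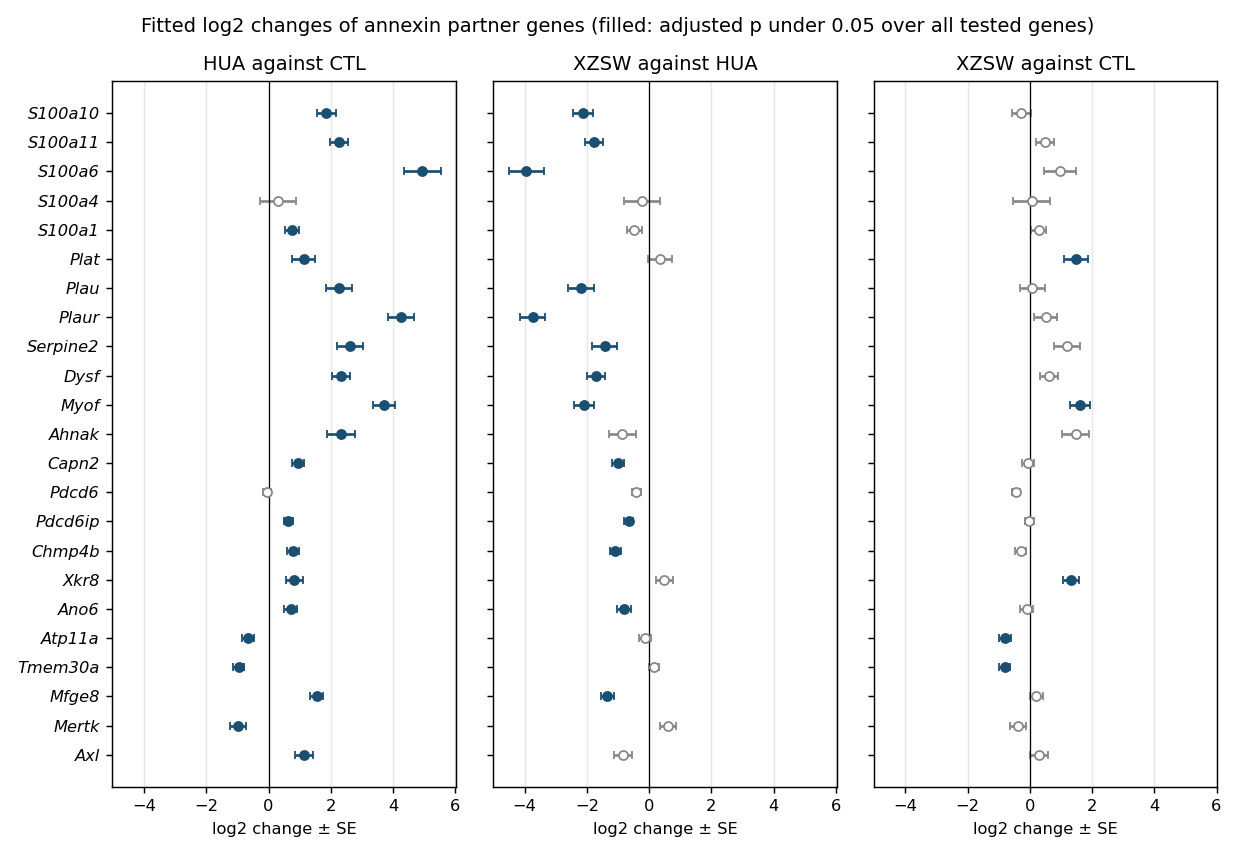
Fitted log2 change with its standard error in the 3 comparisons for a picked part of the 45 tested annexin partner genes. Filled points passed an edgeR adjusted p under 0.05 over all tested genes. Of the partner genes not called in HUA against CTL, only S100a4 and Pdcd6 are drawn. Cav1, Gas6 and others are left out, as are Fpr2 and Stab2. S100a6, Plaur and Myof lie beyond 3 log2 units in HUA against CTL, and Tmem30a, Atp11a and Mertk lie below 0.

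The annexins outside the list were low in these kidneys. Anxa9, an annexin with altered calcium sites, measured 1.68 to 3.72 CPM in CTL, 5.44 to 7.43 CPM in HUA and 2.18 to 7.93 CPM in XZSW. It was called higher in HUA at 1.25 ± 0.37 (edgeR adjusted p = 0.0243), a call lost without CTL1, CTL2 or CTL3. It overlaps the far more abundant gene Mindy1 on the opposite strand, and no source used here says whether the counting used strand. Anxa8 was at 2.60 CPM or less in every library, with 0 counts in CTL2 and XZSW2, and was not called.

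The genes whose log2 level ran most like each annexin over the 12 libraries, by Pearson's r among 9333 genes, are given without a test, since all of them share the same groups and scaling. For Anxa2 they were Sdc1 (0.983), Plpp5 and S100a6, and for Anxa3 Pea15a (0.993), Tmsb10 and Adgrg1. For Anxa5 they were Gsto1 (0.993), Dpysl3 and Krt7, and for Anxa6 Krt7 (0.991), Pgm2 and Lgals3. For Anxa1 they were Ehd4 (0.977), Cavin1 and Plet1, and for Anxa4 Tmem98 (0.967), Aebp1 and Smpdl3b. Anxa13 ran most like Glis1 (0.979), Ndfip1 and Ugt2b38. Anxa7 ran most like Hdgf (0.956), and Anxa11 had the weakest best match, Klhl2 (0.925).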

How the data were processed

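RNA-seq of 12 mouse kidney samples was deposited as 1 table of raw counts and FPKM per gene, per the file headers. The authors trimmed reads with cutadapt 1.9 and aligned them with HISAT2 2.2.1 to GRCm38, per the submitters' processing notes, from strand-specific libraries, per the labels' protocols; the counting tool was not given in the sources used here. All columns were matched to samples. The deposited counts were fitted with edgeR 4.0.16 in R 4.3.3: quasi-likelihood test, TMM scaling, low-count filter by group (19772 genes tested), 1 model over all 12 libraries, Benjamini-Hochberg adjustment over all tested genes, called at an adjusted p under 0.05. The standard error is the log2 change divided by the square root of F. The deposited FPKM served for levels between genes, ratios and limma 3.58.1. DESeq2 1.42.0, other scalings and filters, a replicate block, a GC term and leaving out each library were alternatives. The edgeR script was tested on simulated data.

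The members, partner lists and markers were chosen with earlier results of these data known. The genes named are the 9 members, the other annexins, and in each partner list the 3 genes with the smallest p in HUA against CTL and those called in XZSW against HUA, of which 1 is not reported here; likeness was taken among tested genes whose mean FPKM reached 2. S100a1, S100a4, S100b, Plat, Fpr1, Pla2g4a, Alox5, Pdcd6, Xkr8, Atp11a and Axl were named after their values were seen. Promoters came from RefSeq (GRCm38.p6). Intervals and errors cover the spread between samples only.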

Additional observations from a re-analysis of the deposited data

How the results depend on the processing

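The count of annexins called in HUA against CTL stayed at 7 or 8 under every alternative. In XZSW against HUA it was 4 with CTL, HUA1, XZSW1 and XZSW2 alone, a fit chosen after seeing the data in which HUA had 1 library that was assumed to vary like the others, 5 with the 8 libraries compared alone, and 5 to 8 when single libraries were left out. The 8 libraries alone took all genes called there from 3051 to 1439, and Anxa1, Anxa4, Ano6, Pdcd6ip, Pla2g6, Serpine2 and Stab2 were not called. In XZSW against CTL it was 0 in the reported fit, 3 with DESeq2, 1 with library totals, 4 with the 8 libraries compared alone, 2 and 3 with limma on log2(FPKM + 1) and log2(FPKM + 0.1), 0 to 1 without single libraries (1 without HUA1 and 1 without HUA3), 1 with CTL and the 5 libraries of high GC slope, and 2 with CTL, HUA1, XZSW1 and XZSW2. The cause was not tested. Partner genes called in XZSW against CTL numbered 8 in the reported fit, 5 without the low-count filter, 0 to 10 without single libraries (0 without CTL2 or CTL3) and 13 with CTL, HUA1, XZSW1 and XZSW2.

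The change of Anxa11 in HUA against CTL was negative but near 0, and positive with library totals (0.31), no low-count filter (0.038), the 8 libraries compared (0.012), limma (0.29 and 0.31), a GC term (0.068), without single libraries (from -0.074 without HUA3 to 0.14 without HUA4, and positive also without CTL3, HUA2 or XZSW3), and with CTL, HUA1, XZSW1 and XZSW2 (0.14). In XZSW against CTL limma gave 0.011 and 0.012 with pseudocounts of 1 and 0.1. With CTL, HUA1, XZSW1 and XZSW2, Anxa7 was -0.14 in HUA against CTL and 0.029 in XZSW against HUA, and S100a1 was -0.00809 in HUA against CTL. With a GC term, Ano6 (0.74), Anxa9 (0.72), Atp11a (-0.42), Axl (0.92), Chmp4b (0.44), Mertk (-0.61), S100a1 (0.13) and Xkr8 (0.53) were no longer called in HUA against CTL. That term marks the 5 libraries of high GC slope, which include HUA2, HUA3 and HUA4 but no CTL library. It therefore overlaps with the groups compared.

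Library totals as the scaling moved the median of all genes by 0.33 in HUA against CTL, by -0.17 in XZSW against HUA and by 0.16 in XZSW against CTL. The split of calls over all genes in HUA against CTL then went from 2950 higher and 2538 lower to 5779 higher and 1320 lower. In XZSW against CTL, all genes called went from 987 to 2417 with DESeq2 and 2625 with the 8 libraries compared, and to 133 without CTL2.

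Whether replicate numbers pair the samples was not settled. Correlations of same-numbered libraries ran from -0.03 to 0.36, highest for HUA1 with XZSW1. Of 12 libraries, 6 correlated best with a library of their own number. How many would do so in unpaired samples was not worked out. With the number as a replicate block, 7, 7 and 0 annexins and 25, 16 and 6 partner genes were called for HUA set against CTL, for XZSW set against HUA and for XZSW set against CTL. Under the block, Plat was not called in HUA (1.01) or XZSW (1.32) against CTL, nor Fpr2 in XZSW against CTL, nor Serpine2 in XZSW against HUA (-1.32).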
